A study of Mus musculus with 14 samples.

Results

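The transcription factor genes Egr1, Egr2 and Egr3 and the genes of their corepressors, Nab1 and Nab2, were examined in left ventricular RNA of mice with a gain-of-function mutation of the pacemaker channel HCN4 and of wild-type mice, after Sham surgery or pressure overload. The 5 genes were chosen by name, with knowledge of their read counts in the same libraries, from a table of 49315 genes. The values that chose them were their levels over the 4 groups, so these levels are given as a description without a test. All 5 genes had enough reads to enter the fit, which held 15292 genes.

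The HCN4F line carries a missense knock-in in the C-linker of HCN4, and WT mice were its controls. Male mice aged 10 to 12 weeks underwent transverse aortic constriction (TAC), a narrowing of the aorta that raises the pressure load on the left ventricle, or Sham surgery. The left ventricle was taken 5 weeks later and polyadenylated RNA was sequenced. Used here were 4 libraries each of WT-Sham, HCN4F-Sham and HCN4F-TAC and 2 of WT-TAC (replicates 2 and 3), described by the study as biological replicates. The labels give no strain and do not say whether the mice carried the mutation on one or both alleles.

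EGR proteins are zinc finger transcription factors whose genes are switched on within minutes of a stimulus such as growth factors, stretch or adrenergic signals, and they are therefore counted among the immediate early genes. Their transcription is driven mainly through the factor SRF and its ETS partners and through the cAMP-responsive factor CREB. NAB1 and NAB2 bind EGR proteins directly and repress their targets. NAB2 recruits the NuRD chromatin complex through CHD4, and Nab2 is itself a target of EGR proteins, so that it forms a negative feedback. In heart muscle Egr1 is known to respond to pressure load and to hypertrophic signals.

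Libraries held 22309914 to 35210939 reads on the genes of the table. Levels are given as CPM, the reads of a gene relative to the size of its library after scaling by TMM, edgeR's adjustment of library sizes. This scaled size is not the same as the total of reads given above. Cardiomyocyte markers (Myh6, Actn2, Tnnt2, Tnni3, Myl2 and Ryr2) were present in every library, with sums of 39100 to 58500 CPM. The 4 WT-Sham libraries stood apart from the 10 others in several respects that the groups do not define. Each sample title holds a number, which was higher in all WT-Sham titles than in all others, and the labels do not say what it stands for. Summed cardiomyocyte markers were 55800 to 58500 CPM in WT-Sham and 39100 to 53800 CPM in the others. Summed neutrophil markers were 0.0382 to 0.435 CPM in WT-Sham and 0.73 to 3.71 CPM in the others, with 3 of the 4 markers detected and Ly6g, the defining one, at 0 in all libraries. Neither their part in the results nor that of whatever the title number marks was tested. The title number cannot be told apart from the WT-Sham group, nor from the genotype, in Sham or after TAC. In bulk RNA, fewer cells of a type and less RNA per cell cannot be told apart either. Hcn4, the mutated gene, was read in every library at 3.49 to 13.45 CPM. Its level is no check of the genotype labels, since counts per gene do not show the changed residue. After TAC the HCN4F libraries (3.49 to 9.071 CPM) lay below those of WT (11.87 and 13.45 CPM), and the difference was not called.

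On the mouse genome build GRCm38, Egr2 lies on chromosome 10 from 67535475 to 67542188 (plus strand), Egr3 on chromosome 14 from 70077203 to 70082614 (plus), Nab1 on chromosome 1 from 52457294 to 52500679 (minus) and Nab2 on chromosome 10 from 127660918 to 127668568 (minus). Upstream sequence was taken from RefSeq (GRCm38.p6), whose promoter table held 3 of the 5 genes, namely Egr2, Nab1 and Nab2. The 250 bases before the Egr2 start site at 67537869 are shown because they hold, close together, matches to motifs of the pathways named above. They lie in chr10:67537619-67537868 (plus strand) and overlap no exon of the gene in the GENCODE annotation. A further RefSeq start of Egr2, the outermost at 67535499, had no match in its window. For contrast, the sequence before the RefSeq start of Nab2 is shown, chr10:127666711-127666953 (minus strand, 243 bases outside annotated Nab2 exons), which held no match to any motif searched. GENCODE has a longer Nab2 transcript, so these bases lie inside the annotated gene, and they overlap the Nemp1 gene, which starts at 127666901. Capitals mark the matches.
Egr2: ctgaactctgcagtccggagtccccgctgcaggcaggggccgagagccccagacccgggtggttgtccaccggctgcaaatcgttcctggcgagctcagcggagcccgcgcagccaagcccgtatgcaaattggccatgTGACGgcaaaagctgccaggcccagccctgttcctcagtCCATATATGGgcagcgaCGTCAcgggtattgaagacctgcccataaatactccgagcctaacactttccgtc
Nab2: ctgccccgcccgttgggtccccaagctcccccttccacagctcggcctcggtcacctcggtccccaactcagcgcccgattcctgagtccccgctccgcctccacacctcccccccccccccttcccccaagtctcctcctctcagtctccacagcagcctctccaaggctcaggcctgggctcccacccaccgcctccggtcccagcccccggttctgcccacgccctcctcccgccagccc
In the Egr2 sequence the capitals mark, from left to right, a CRE half-site (TGACG) at -111 to -107, a CArG box, the SRF motif with only A or T between CC and GG, at -72 to -63, and the same half-site read on the other strand at -55 to -51. The next RefSeq start upstream, at 67537566, was also preceded by a CArG box (CCTTTTTTGG) at -72 to -63, with ETS cores (CCGGAA) beside it. CArG boxes were found in 1.47% of all 32851 upstream windows, CRE half-sites in 17.8% and ETS cores in 12%, on either strand. The Nab1 window held the EGR motif (GCGNGGGCG) at 3 places, as CGCCCACGC at -141 to -133, GCGTGGGCG at -109 to -101 and GCGGGGGCG at -38 to -30, and a CRE half-site at -123 to -119. Of the 250 bases of this Nab1 window, 231 lie in an annotated exon. The EGR motif was found in 4.7% of all windows. These are matches of letters, and binding was not measured.

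Egr1, the member with the most reads, was low in WT-Sham hearts and far higher in every other library. In WT-Sham it was 18.52, 11.43, 9.559 and 10.68 CPM (12.55 ± 4.05, SD, n = 4). In HCN4F-Sham it was 109.2, 206.3, 202.1 and 111.8 CPM (157.4 ± 54.1, n = 4), although these mice had no pressure overload. After TAC it was 186.8 and 124.5 CPM in WT (155.6 ± 44.1, n = 2) and 149.9, 235, 257.1 and 226.9 CPM in HCN4F (217.2 ± 46.7, n = 4). The highest WT-Sham library (18.52 CPM) thus lay below the lowest of the 10 others (109.2 CPM), while the other 3 groups overlapped. The lowest library had 250 Egr1 reads and the highest 7279. On the mouse build GRCm38, Egr1 spans 34859823 to 34864984 of chromosome 18 (plus strand).

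The fitted Egr1 difference between TAC and Sham was 3.63 on the log2 scale in WT (SE 0.34, 12.4-fold) and 0.47 in HCN4F (SE 0.274, 1.38-fold). The HCN4F-Sham against WT-Sham difference was 3.65 (SE 0.313, 12.5-fold), and this comparison and that of TAC in WT use the same WT-Sham libraries. After TAC the genotypes differed by 0.48 (SE 0.342, and from 0.218 without WT-TAC replicate 3 to 0.803 without WT-TAC replicate 2), and their libraries overlapped. The response of HCN4F minus that of WT was -3.17 (SE 0.436).

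**Figure D1:**
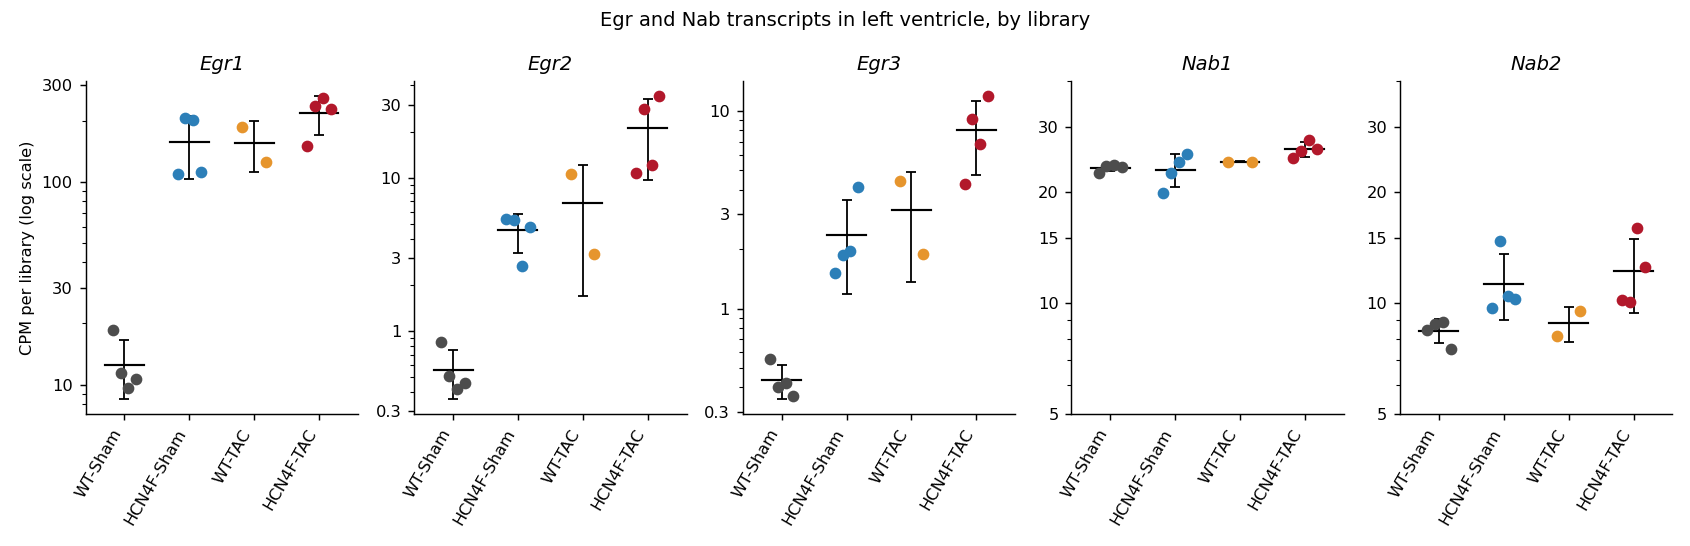
Levels of Egr1, Egr2, Egr3, Nab1 and Nab2 in left ventricle, in CPM on a log axis, 1 point per library, with the mean and SD of each group as lines and error bars (2 libraries in WT-TAC, 4 in each other group). For Egr1, Egr2 and Egr3 all WT-Sham points lie below all others, whereas Nab1 stays between 19.91 and 27.76 CPM in every library.

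Egr2, known for its role in myelinating Schwann cells and also inducible in other cells, was close to the detection limit in WT-Sham and had its highest values in HCN4F-TAC. WT-Sham libraries had 0.8501, 0.5078, 0.4206 and 0.4574 CPM (0.559 ± 0.197, n = 4), the lowest with 11 reads, where 3 reads correspond to 0.0859 to 0.137 CPM. HCN4F-Sham had 5.42, 5.34, 2.639 and 4.77 CPM (4.543 ± 1.3, n = 4). WT-TAC had 10.56 and 3.206 CPM (6.881 ± 5.20, n = 2), and HCN4F-TAC had 10.7, 28.09, 12.19 and 34.01 CPM (21.25 ± 11.6, n = 4). Unlike Egr1, Egr2 was higher in every HCN4F-TAC library than in every library of the other groups. The gap to WT-TAC replicate 2 was small (10.7 against 10.56 CPM). How many of all genes show this separation was not counted. For HCN4F-TAC above HCN4F-Sham alone it was 7.95% of all tested genes, and above WT-TAC alone 11.3%. Marker sums set HCN4F-TAC apart as well, at 39100 to 47100 CPM for cardiomyocyte markers against at least 50800 CPM elsewhere, and at 412 to 1860 CPM for atrial markers, a list led by the load-responsive Nppa, against at most 247 CPM. Of the 7 Schwann cell markers, 3 were called lower for TAC in HCN4F, with sums of 6.36 to 9.87 CPM against 12 to 17.4 CPM in HCN4F-Sham. HCN4F-TAC replicate 2 had the highest levels of the atrial markers Myl7 (9.911 CPM), Myl4 (17.35 CPM) and Sln (3.787 CPM). Without this library the Egr2 difference between HCN4F-TAC and HCN4F-Sham was 2.06 on the log2 scale. The part of the other marker differences was not tested.

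The Egr2 log2 difference between TAC and Sham was 3.58 (SE 0.689, 12-fold) in WT and 2.23 (SE 0.454, 4.69-fold) in HCN4F. Between the genotypes it was 3.01 (SE 0.636, 8.07-fold) in Sham and 1.66 (SE 0.565, 3.16-fold) after TAC. The interaction was -1.35 (SE 0.858). The 2 WT-TAC libraries differed widely, and without replicate 2 the WT response was 2.52, the genotype difference after TAC 2.73 and the interaction -0.287.

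Egr3, an EGR protein best known from lymphocytes and muscle spindles, was the member with the fewest reads and followed the order of Egr2. It was at 0.5544, 0.399, 0.4206 and 0.3594 CPM in WT-Sham (0.4333 ± 0.0846, n = 4) and at 1.506, 1.871, 1.952 and 4.106 CPM in HCN4F-Sham (2.359 ± 1.18, n = 4). After TAC it was at 4.395 and 1.889 CPM in WT (3.142 ± 1.77, n = 2) and at 4.272, 9.055, 6.782 and 11.88 CPM in HCN4F (7.997 ± 3.24, n = 4). WT-Sham lay below all other libraries, HCN4F-TAC lay above HCN4F-Sham, and HCN4F-TAC and WT-TAC overlapped.

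In log2 units, Egr3 differed between TAC and Sham by 2.82 (SE 0.542, 7.05-fold) in WT and by 1.73 (SE 0.357, 3.32-fold) in HCN4F. HCN4F exceeded WT by 2.47 (SE 0.488, 5.52-fold) in Sham and by 1.38 (SE 0.446, 2.61-fold) after TAC, and the interaction was -1.09 (SE 0.665). Without WT-TAC replicate 2 the genotype difference after TAC was 2.08 and the interaction -0.388.

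Nab1, the corepressor expressed in most tissues, was nearly level. Its libraries had 22.55, 23.5, 23.74 and 23.36 CPM in WT-Sham (23.29 ± 0.520, n = 4) and 19.91, 22.5, 24.08 and 25.42 CPM in HCN4F-Sham (22.98 ± 2.37, n = 4). They had 24.19 and 24.1 CPM in WT-TAC (24.15 ± 0.0668, n = 2) and 24.72, 25.91, 27.76 and 26.2 CPM in HCN4F-TAC (26.15 ± 1.25, n = 4). The HCN4F-TAC libraries lay above those of WT-TAC by a small margin, and the Sham groups overlapped. The log2 differences were 0.05 (SE 0.0917) and 0.19 (SE 0.0751) for TAC in WT and HCN4F, and -0.02 (SE 0.0753) and 0.12 (SE 0.092) for HCN4F against WT in Sham and after TAC.

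Nab2, the EGR-inducible corepressor, differed little with TAC and was higher in HCN4F than in WT under both surgeries. It was at 8.427, 8.778, 8.909 and 7.514 CPM in WT-Sham (8.407 ± 0.629, n = 4) and at 9.712, 14.7, 10.48 and 10.23 CPM in HCN4F-Sham (11.28 ± 2.30, n = 4). WT-TAC had 8.133 and 9.503 CPM (8.818 ± 0.968, n = 2), within or just above the WT-Sham range, and HCN4F-TAC had 10.2, 10.04, 15.97 and 12.53 CPM (12.18 ± 2.77, n = 4). After TMM scaling all HCN4F libraries lay above all WT libraries, by a small gap (9.712 against 9.503 CPM). The share of all genes with this split was not counted. In Sham alone 3.89% of all tested genes were higher in every HCN4F library, and after TAC alone 11.3%. The title numbers split the genotypes as well. HCN4F exceeded WT by 0.42 on the log2 scale in Sham (SE 0.153, 1.34-fold) and by 0.46 after TAC (SE 0.189, 1.38-fold). TAC against Sham gave 0.07 (SE 0.188) in WT and 0.12 (SE 0.151) in HCN4F, and the interaction was 0.04 (SE 0.242).

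Nab2 shares bases with Stat6, Nemp1 and the antisense gene Gm16229, all on the opposite strand, and whether the counting used strand is not stated, so their reads and those of Nab2 cannot be fully told apart. Gm16229 had at most 2 reads in any library. Stat6 differed between the genotypes by -0.16 (SE 0.077) in Sham and -0.02 (SE 0.094) after TAC, and Nemp1 by 0.20 (SE 0.124) and -0.06 (SE 0.156). The part of their reads in the Nab2 values was not tested.

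**Figure D2:**
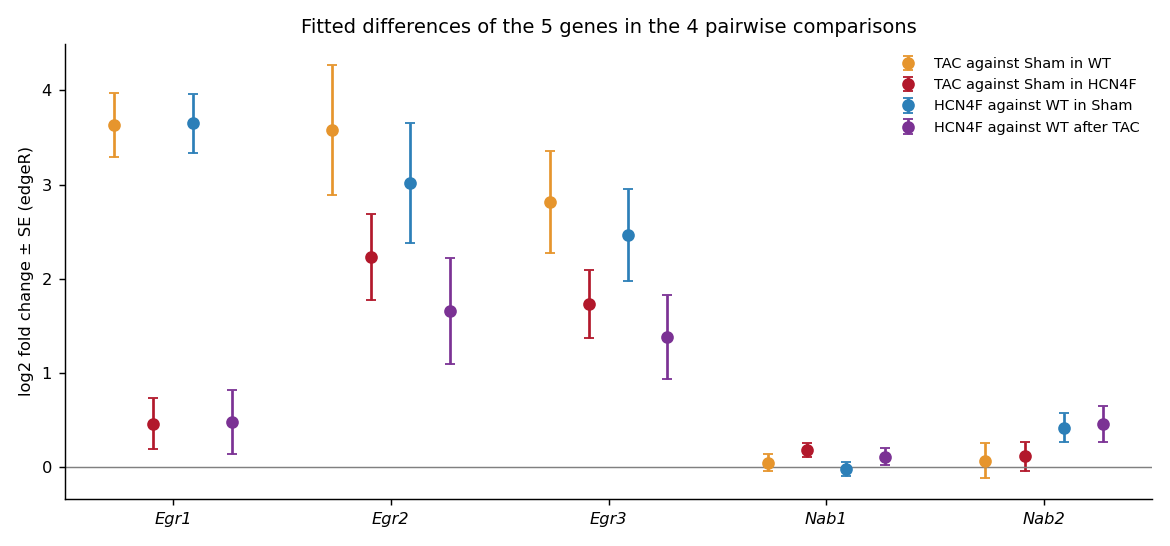
Log2 fold change and standard error of each gene in the 4 pairwise comparisons, from 1 edgeR fit over 14 libraries. Egr1 lies near 3.6 for both comparisons with WT-Sham and near 0.5 for the other pair, whereas Nab2 lies above 0.4 for both genotype comparisons and near 0.1 for both TAC comparisons.

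Genes were called at a log2 fold change above 1 or below -1 together with an adjusted p-value under 0.05 in edgeR's quasi-likelihood test. The rule that chose the members used these same contrasts, so the counts are given beside the background and nothing is read from them. For TAC in WT, 3 of the 5 genes were called (Egr1, Egr2 and Egr3) and 0.706% of all tested genes. Egr2 and Egr3 lost this call without either WT-TAC library or WT-Sham replicate 4, and Egr2 also without WT-Sham replicate 1. For TAC in HCN4F, 2 were called (Egr2 and Egr3) against 2.75% of all genes. For HCN4F against WT in Sham, 2 were called (Egr1 and Egr3) against 0.209% (32 genes, and 11 to 92 with 1 library left out). Egr3 lost this call with no filter and without any single library other than HCN4F-Sham replicate 1, and Egr2 gained one without that library, with DESeq2, with the compared groups only and with the replicate block. After TAC none of the 5 was called, against 0.0719% (11 genes, but 158 without HCN4F-TAC replicate 3). For the interaction, judged by the adjusted p-value alone, none of the 5 was called, as for all genes (0%). Egr1 was called there in 4 of 19 alternatives, among them DESeq2 (34 genes in all) and the fit without HCN4F-TAC replicate 3 (78 genes).

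Counts of non-overlapping libraries have a higher background where a group has few libraries. All TAC libraries exceeded all Sham libraries in 4 of the 5 genes in WT (19.2% of all genes) and in 2 of them in HCN4F (7.95%). All HCN4F libraries exceeded all WT libraries in 4 genes in Sham (3.89%) and in 3 after TAC (11.3%). The 3 Egr genes were higher in all 10 libraries of the other groups than in WT-Sham, against 1.29% of all genes. The median log2 fold change of the 5 genes was 2.82 and 0.466 for TAC in WT and HCN4F, and 2.47 and 0.482 for the genotype in Sham and after TAC. Over all tested genes the corresponding medians were -0.0231, -0.00666, 0.00485 and 0.00362.

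Levels can be compared between genes only per length, here as CPM per kilobase of annotated exon. In WT-Sham, Nab1 (5.68) was the highest of the family, Nab2 (2.86) and Egr1 (2.8) were about equal, and Egr2 (0.165) and Egr3 (0.0984) were far lower. In HCN4F-TAC, Egr1 (48.4) was the highest, followed by Nab1 (6.38), Egr2 (6.25), Nab2 (4.14) and Egr3 (1.82). The balance of activator to corepressor reads moved accordingly. WT-Sham libraries had 1.07 to 2.2 Egr1 reads per Nab2 read. The ratio was 10.9 to 19.3 in HCN4F-Sham, 13.1 to 23.0 in WT-TAC and 14.7 to 23.4 in HCN4F-TAC, so that WT-Sham was apart from groups that overlapped one another.

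The make-up of the Egr reads differed less regularly. There were 4.28 to 4.59 Egr2 reads per 100 Egr1 reads in WT-Sham, 1.31 to 4.96 in HCN4F-Sham, 2.58 to 5.65 in WT-TAC and 4.74 to 15.0 in HCN4F-TAC. All HCN4F-TAC libraries therefore exceeded those of WT-Sham, but overlapped the other groups. Egr3 reads per 100 Egr2 reads were 65.2 to 100 in WT-Sham, where both genes had few reads, 27.8 to 86.1 in HCN4F-Sham, 41.6 to 58.9 in WT-TAC and 32.2 to 55.7 in HCN4F-TAC, and HCN4F-Sham overlapped all other groups.

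**Figure D3:**
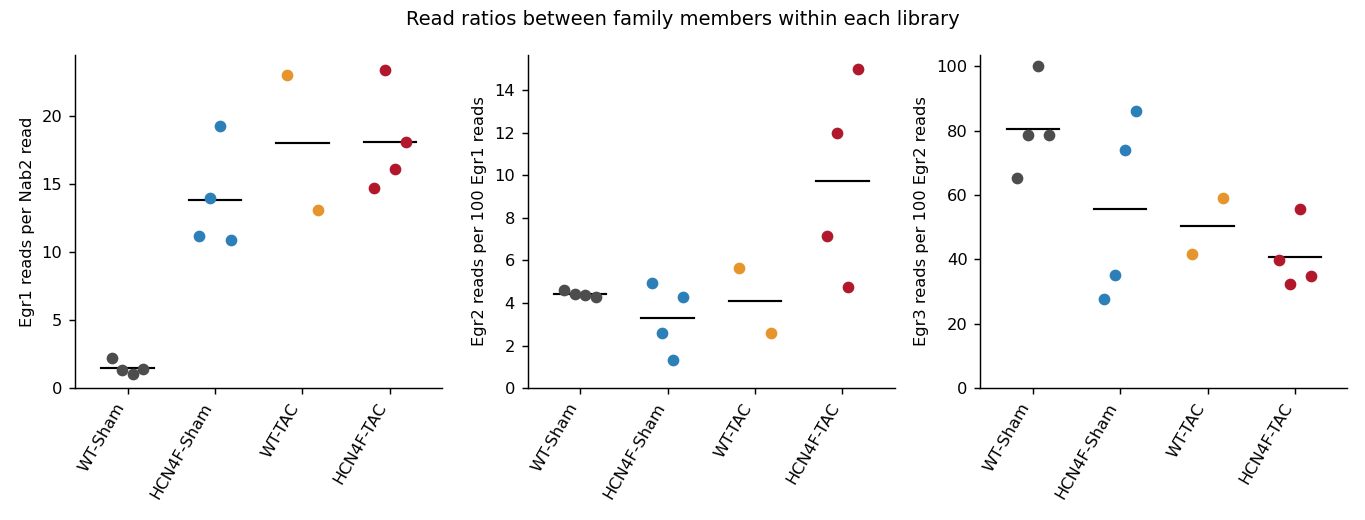
Ratios of reads between members within each library (points) with group means (lines), for Egr1 to Nab2, Egr2 per 100 Egr1 and Egr3 per 100 Egr2 reads. The ratio of Egr1 to Nab2 separates WT-Sham (1.07 to 2.2) from all other libraries (10.9 to 23.4), and the highest ratios of Egr2 to Egr1 are those of HCN4F-TAC.

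Across the 14 libraries, log2 levels of Egr2 and Egr3 were correlated with Pearson's r of 0.973, and with r of 0.702 after each group's mean was subtracted. Egr1 was correlated with Egr2 (r = 0.907) and Egr3 (r = 0.894) over all libraries, which share the low WT-Sham group, but less within groups (0.352 and 0.314). Nab2 was correlated with Egr1 with r of 0.647 over all libraries and 0.407 within groups, and Nab1 with Egr1 with r of 0.363 and 0.182. The highest r within groups between an Egr and a Nab gene was that of Egr3 and Nab1 (0.513, and 0.62 over all libraries). Within groups, Nab2 had no positive relation with Egr2 (-0.149) or Egr3 (-0.0617). These values are descriptions over 14 libraries that share their group structure.

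**Figure D4:**
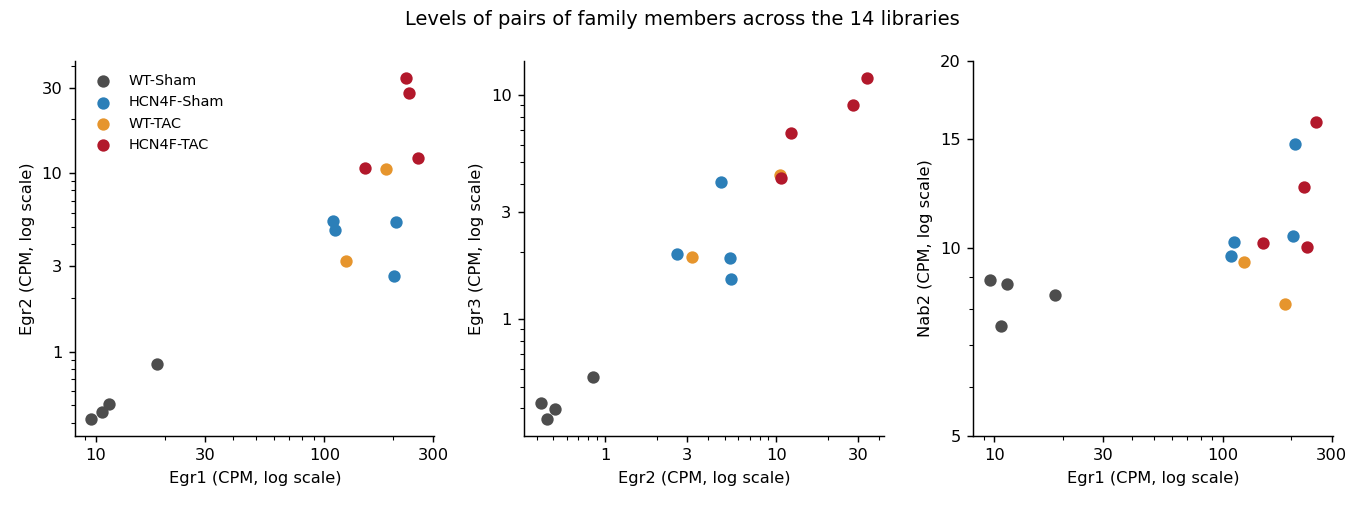
Levels of Egr1 and Egr2, Egr2 and Egr3, and Egr1 and Nab2 in the 14 libraries, in CPM on log axes, coloured by group. WT-Sham forms a cluster of its own at low Egr1, and within the remaining libraries Egr2 and Egr3 rise together more than Egr1 and Egr2 do.

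Of 12559 other genes, those with the pattern most like Egr1 over the 14 libraries were Ier2 (r = 0.982), Junb (0.954), Fos (0.926), Zswim6 (0.912), Lhx6 (0.903) and Samd5 (0.902). The first 3 are immediate early genes themselves. Ier2 had 13.4 to 18.7 CPM in WT-Sham and 34.6 to 61.8 CPM in the other libraries. Within groups, r with Egr1 was 0.893 for Ier2, 0.719 for Junb, 0.594 for Fos, 0.159 for Zswim6, 0.691 for Lhx6 and 0.221 for Samd5. Genes most like Nab2 included Klf16 (r = 0.913), Mamstr (0.855) and Tet3 (0.835), with r within groups of 0.877, 0.937 and 0.747.

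Other immediate early genes, a list of 35 of which 34 were tested, had called genes in all 4 pairwise comparisons, and none was called lower. This list and those below were chosen with earlier results of these data known. Their counts and p-values therefore describe these libraries and are no independent support for a pattern. For TAC against Sham in WT, 6 of 34 were called higher (17.6%, against 0.706% of all tested genes). Fos was higher by 2.55 on the log2 scale (SE 0.392, adjusted p = 0.00773 in edgeR's quasi-likelihood test, adjusted by Benjamini-Hochberg). In the same test Junb was higher by 1.95 (SE 0.239, adjusted p = 0.0019) and Myc by 1.94 (SE 0.27, adjusted p = 0.00263). The others were Cyr61, a matricellular protein gene (1.68), Arc (1.69) and Ier2 (1.46). Without WT-TAC replicate 3, 3 genes of the list were called, and Fos was not among them (adjusted p = 0.0924).

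For TAC against Sham in HCN4F, 7 of the 34 genes were called higher (20.6%, against 2.75% of all tested genes). Fos and Cyr61 were called in both genotypes. Ptgs2, which encodes the inducible cyclooxygenase, was higher by 2.46 (SE 0.255, adjusted p = 2.8e-05 in edgeR's quasi-likelihood test). In that test the stress factor gene Atf3 was higher by 2.03 (SE 0.507, adjusted p = 0.0221) and the YAP target Ctgf by 1.90 (SE 0.296, adjusted p = 0.00184). Socs3 (1.27), Cyr61 (1.23), Fos (1.09) and Nr4a1 (1.04) made up the rest. Atf3 lost its call without HCN4F-Sham replicate 2 or 3 or HCN4F-TAC replicate 1 or 4, and without HCN4F-Sham replicate 2 the list had 4 calls.

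Between the genotypes in Sham, 4 of the 34 genes were called higher in HCN4F (11.8%, against 0.209% of all tested genes). They were Fos, Junb, Ier2 and Myc. Their log2 differences were 1.90 (SE 0.353, adjusted p = 0.0411), 1.63 (SE 0.208, adjusted p = 0.00377), 1.54 (SE 0.198, adjusted p = 0.00369) and 1.51 (SE 0.237, adjusted p = 0.0123) in edgeR's test. Against the same WT-Sham libraries, TAC in WT gave 2.55, 1.95, 1.46 and 1.94 for these genes. Fos lost its call without any single WT-Sham library and without HCN4F-Sham replicate 2 or 3, with adjusted p up to 0.129. After TAC, Ptgs2 was the only gene of the list called higher in HCN4F (2.94%, against 0.0719% of all tested genes). Its difference was 1.88 (SE 0.309, adjusted p = 0.0176 in edgeR's test). Ptgs2 lost its call without either WT-TAC library or HCN4F-TAC replicate 4. No gene of the list was called for the interaction in edgeR, where 9 of the 34 had an unadjusted p under 0.05 (9.27% of all tested genes), and DESeq2 called 1. The median log2 fold changes of the list were 0.613, 0.474, 0.33 and 0.242 in the 4 pairwise comparisons. Those of all tested genes were -0.0231, -0.00666, 0.00485 and 0.00362.

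The summed neutrophil and cardiomyocyte markers given above set WT-Sham apart from all other libraries, as Fos, Junb, Ier2, Myc, Cyr61 and Arc did. Atf3, Ctgf, Ptgs2, Socs3 and Nr4a1 overlapped between WT-Sham and HCN4F-Sham. For TAC in HCN4F, summed cardiomyocyte markers were 39100 to 47100 CPM against 50800 to 53800 CPM in HCN4F-Sham, atrial markers 412 to 1860 CPM against 70.5 to 136 CPM and fibroblast markers 529 to 823 CPM against 449 to 567 CPM. For TAC in WT, 2 of the 3 tested neutrophil markers were themselves called higher. Their part in the differences of the immediate early genes was not tested.

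Genes reported elsewhere to respond to EGR factors (40, of which 39 were tested) were called for TAC in both genotypes. For TAC against Sham in WT, 4 of 39 were called higher (10.3%, against 0.706% of all tested genes). Thbs1, which encodes the matrix protein thrombospondin, was higher by 1.82 (SE 0.386, adjusted p = 0.0296 in edgeR's quasi-likelihood test) and Gadd45b by 1.19 (SE 0.247, adjusted p = 0.0222). Cd44, the gene of the hyaluronan receptor, was also called (1.14). These calls rested on few libraries. Thbs1 lost its call in 5 of the 6 fits with 1 library left out, those without WT-Sham replicate 1, 2 or 4 or either WT-TAC library. Gadd45b lost its call without WT-Sham replicate 3 or 4 or either WT-TAC library. The list had 1 call without WT-Sham replicate 1 or 4 or WT-TAC replicate 2, 2 calls without WT-Sham replicate 2, and none without WT-TAC replicate 3.

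In HCN4F, 7 of 39 (17.9%, against 2.75% of all tested genes) were called for TAC, 6 higher and 1 lower. Thbs1 was higher by 2.53 (SE 0.336, adjusted p = 0.000815 in edgeR's test) and Rcan1, an inhibitor of calcineurin, by 1.85 (SE 0.317, adjusted p = 0.00316). Neither lost its call when a library was left out. Timp1 (1.64), Col1a1 (1.14) and Cd44 (1.09) were also called higher. Summed fibroblast markers, Col1a1 among them, were 529 to 823 CPM in HCN4F-TAC and 449 to 567 CPM in HCN4F-Sham, and summed atrial markers 412 to 1860 CPM and 70.5 to 136 CPM. Their part in these differences was not tested. The myelin gene Mbp was lower by 1.08 (SE 0.209, adjusted p = 0.00276 in the same test). As given above, 3 of the 7 Schwann cell markers were also called lower in this comparison. The part of Schwann cell content in the Mbp difference was not tested.

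Between the genotypes no EGR-responsive gene was called in Sham, where 6 of the 39 had an unadjusted p under 0.05 in edgeR (15.2% of all tested genes) and DESeq2 called 1. In Sham 1 gene was called without WT-Sham replicate 1 or without HCN4F-Sham replicate 1. After TAC none was called, with 11 under an unadjusted p of 0.05 (12.5% of all genes) and 0 called by DESeq2, but 3 were called without HCN4F-TAC replicate 3. The interaction had no call, with 8 under that unadjusted p (9.27% of all genes), 1 called by DESeq2 and 3 called without HCN4F-TAC replicate 3. The median log2 fold changes of the list were 0.147 and 0.188 for TAC and 0.154 and 0.252 for genotype. Those of all tested genes were -0.0231, -0.00666, 0.00485 and 0.00362 in the same order. Of the 39, 26 and 25 had a positive difference for TAC in WT and HCN4F, and 29 in each of the 2 genotype comparisons. The share of all genes with a positive difference was not counted. By adjusted p alone 1 gene passed for the genotype in Sham, which was lower in HCN4F.

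**Figure D5:**
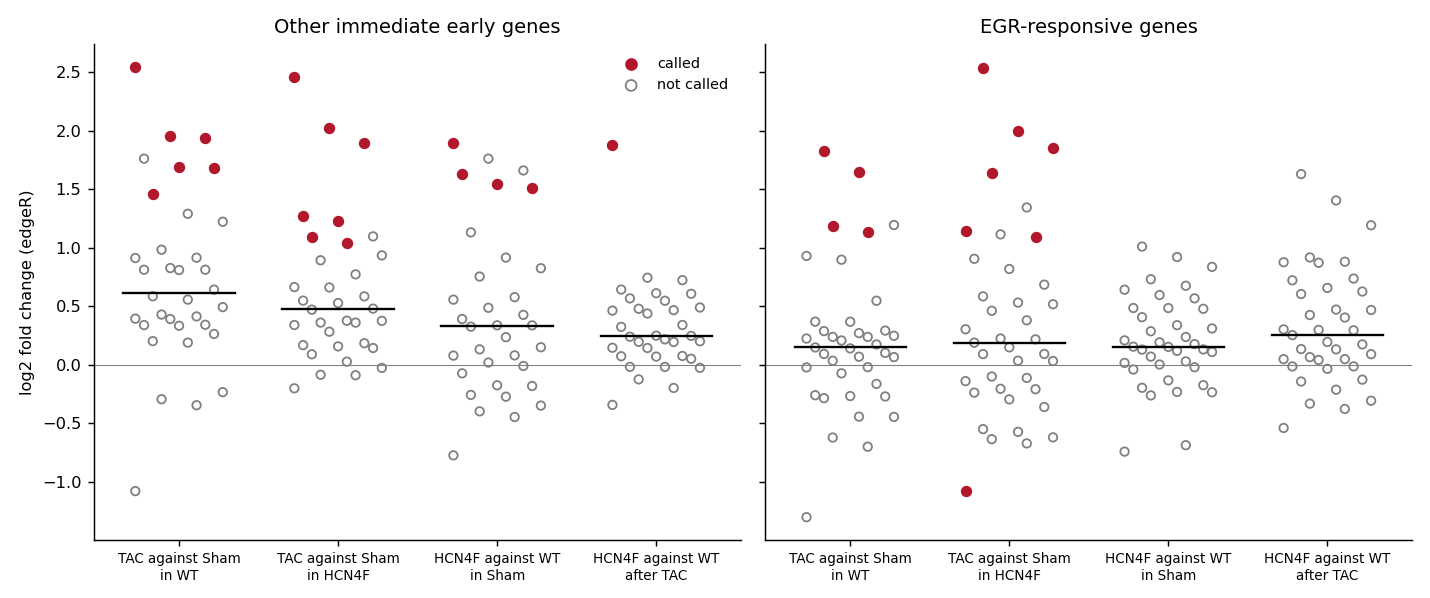
Log2 fold changes of the tested immediate early genes other than the members (34, left) and of the EGR-responsive genes (39, right) in the 4 pairwise comparisons, with the list median as a line and called genes filled. Called immediate early genes number 6, 7, 4 and 1 from left to right and called EGR-responsive genes 4, 7, 0 and 0. Of all tested genes 0.706%, 2.75%, 0.209% and 0.0719% were called.

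Of 15 genes of the upstream SRF and ERK route (among them Srf and Elk1) and 13 NuRD subunits (among them Chd4), none was called in the 5 comparisons by edgeR or by DESeq2. By adjusted p alone, 2 upstream genes passed for TAC in HCN4F, with smaller rises than the fold required for a call, among them Srf (0.42, SE 0.112, adjusted p = 0.0193 in edgeR's quasi-likelihood test). At an unadjusted p under 0.05 in edgeR, 3, 3, 3, 0 and 1 of the upstream genes and 0, 3, 3, 0 and 1 of the NuRD subunits were counted, in the order TAC in WT, TAC in HCN4F, genotype in Sham, genotype after TAC and interaction. The shares of all tested genes were 22%, 28.3%, 15.2%, 12.5% and 9.27% in the same order. The list medians lay between -0.0424 and 0.0894 on the log2 scale. Among other genes with EGR-type zinc fingers, Egr4 had 1 read in 1 WT-Sham library and none elsewhere, and Wt1 was not called in any comparison by edgeR or DESeq2, with 0 at an unadjusted p under 0.05.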

How the data were processed

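Total RNA of left ventricle was sequenced after polyA selection on an Illumina platform. The authors deposited raw counts, given as whole reads for every gene and library, without normalization. The labels name the build GRCm38. The programs for alignment and counting, the gene annotation and whether strand was used are not given in the sources used here. Each library was assigned to its group by its label, and 2 further columns of per-sample values, which match no sample here, were not used, although the study describes 16 libraries. The members and lists were chosen with earlier results of these data known.

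Genes were kept with filterByExpr by group (15292 of 49315), scaled by TMM and fitted in 1 model of 4 group means over 14 libraries with edgeR 4.0.16 (R 4.3.3), with robust quasi-likelihood tests and Benjamini-Hochberg adjustment over all tested genes. CPM carry no pseudocount, and log2 levels for correlations a prior count of 2. A gene was called at an adjusted p under 0.05 with a log2 fold change above 1 or below -1, and by adjusted p alone for the interaction. The script was tested on simulated data. Named were the members, Egr4, Wt1, Hcn4, up to 3 called genes of each list and comparison with the largest change, and the 6 and 4 genes most like Egr1 and Nab2 (mean CPM of at least 1). Other genes of the lists were named after their values were seen. Lists held immediate early, EGR-responsive, upstream SRF and ERK, NuRD and other EGR-type genes. Some genes of the EGR-responsive list, among them Prx and Col1a1, are also Schwann cell or fibroblast markers. Results of a few genes that this rule names are not reported here. Alternatives were DESeq2 1.42.0, its size factors, a fit of the compared groups only, other filters, a replicate block, adjusted p alone, a prior count of 0.5 and leaving out each library. Positions and exon lengths come from GENCODE vM21. Depth was 22309914 to 35210939 reads per library, and an observed 0 is compatible with as many as 3 reads (0.0859 to 0.137 CPM), which covers counting error only.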

Additional observations from a re-analysis of the deposited data

Results flagged for a closer look

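Nab2 in HCN4F-Sham replicate 2 stood apart from the other libraries of its group, with 14.7 CPM against 9.712 to 10.48 CPM. The gap was 0.845 of the group's range, above the critical value for 4 samples. In all, 48 groups of 4 libraries were examined in this way, of which chance flags about 1 in 20, and the Nab2 difference between genotypes in Sham was 0.272 on the log2 scale at its lowest when a library was left out.

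Gadd45b, a stress response gene of the EGR-responsive list, was higher in both WT-TAC libraries than the WT-Sham mean and lower in every HCN4F-TAC library than the HCN4F-Sham mean. The mean difference between these responses was -1.53 on the log2 scale of CPM plus 0.1. In edgeR the interaction was not called (adjusted p = 0.295 in the quasi-likelihood test).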

How the results depend on the processing

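No sign of a called member changed under any alternative. Nab1 and Nab2, whose differences were near 0 in some comparisons, changed sign in 1 of 14 alternatives (Nab1, genotype in Sham), 1 of 14 (Nab2, TAC in HCN4F), 2 of 12 (Nab2, TAC in WT) and 4 of 19 (Nab2, interaction). With 1 library left out, the log2 fold change ranged for Egr2 from 2.517 to 4.234 (TAC in WT), 1.009 to 2.726 (genotype after TAC) and -2.004 to -0.287 (interaction), and for Egr3 from 2.121 to 3.336, 0.8633 to 2.079 and -1.603 to -0.3877. Egr1 was called for TAC in WT and for genotype in Sham under all 12 and all 14 alternatives, Egr2 under 8 and 4 and Egr3 under 9 and 6 of them. Egr1 was called for the interaction in 4 of 19, among them DESeq2. Over all genes, calls with 1 library left out numbered 7 to 91 for TAC in WT (7 without WT-TAC replicate 3), 273 to 550 for TAC in HCN4F, 11 to 92 for genotype in Sham, 6 to 158 for genotype after TAC (158 without HCN4F-TAC replicate 3) and 0 to 78 for the interaction. DESeq2 called 137, 432, 74, 87 and 34.

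Called immediate early genes numbered 10 for TAC in WT with the compared groups only, 4 for TAC in HCN4F with the compared groups only or with no filter and 12 by adjusted p alone, and 0 for genotype after TAC with the compared groups only. They ranged with 1 library left out from 3 to 5 for TAC in WT, 4 to 6 for TAC in HCN4F and 0 to 1 for genotype after TAC. DESeq2 called 1 for the interaction. Called EGR-responsive genes numbered 2 for TAC in WT with no filter, 14 for TAC in HCN4F by adjusted p alone, and 1 for genotype in Sham by DESeq2 or adjusted p alone. With 1 library left out they ranged from 0 to 3 for TAC in WT, 0 to 1 for genotype in Sham, 0 to 3 for genotype after TAC and 0 to 3 for the interaction, where DESeq2 called 1. Of the named list genes, 35 of 210 values lost their call and kept their sign. The cause of these shifts was not tested, other than fewer samples where a library was left out.

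Replicate numbers are shared between groups, but libraries of the same number did not deviate together (correlations of -0.12 to 0.159, 2 of 18 over 0.1). With the replicate block, 3 members were called for genotype in Sham (Egr1, Egr2 and Egr3) and 0 immediate early genes were called for genotype after TAC, while all other counts of list genes stayed within 1.5 times. WT-TAC had 2 libraries, and Egr2 and Egr3 had 11 to 23 reads per WT-Sham library, which limits the precision of their fold changes.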
